A study of Mus musculus with 2 samples.

Results

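The genes of the translation initiation and elongation factors were described in single PK44 cells of the mouse yolk sac at E10.0. Members were the genes of the deposited count tables whose symbol begins with *Eif1* to *Eif6*, *Eef1* or *Eef2*, which gave 64 of 23154 genes. The study profiled PK44 cells, sorted as CD41-CD43-CD45-CD31+CD201+Kit+CD44+, to describe the molecular traits of this population in the yolk sac. It also compared them with PK44 cells of the AGM region. All cells came from E10.0 yolk sacs, without treatment or engineered allele in the labels, and the methods give the mice as of C57BL/6 background. Cells were picked by mouth pipette into lysis buffer and profiled by modified STRT-seq, in which each cell and each transcript molecule is tagged at the 3′ end. The AGM cells of the study were not analysed here. Replicate 1 held 43 cells with 8932527 counts in all, a median of 141577 per cell and a range of 13218 to 702028. Replicate 2 held 44 cells with 12706360 counts, a median of 238898 per cell and a range of 51620 to 956593. The 2 libraries shared 0 cell barcodes. The sources do not say which or how many embryos the cells of a library came from, so n = 2 below means 2 libraries of a single condition. Levels are given as CPM, the summed counts of a library's cells on a common scale, and were not divided by transcript length because the counts come from 3′ ends.

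Each of 15 endothelial marker genes was found in 57 to 87 of the 87 cells, and several erythroid and macrophage markers had no count. *Cdh5*, the cadherin of endothelial junctions, had a count in 87 of 87 cells, at 463 and 632 CPM in replicates 1 and 2. *Runx1*, the transcription factor of the endothelial-to-hematopoietic transition, had 300 and 136 CPM in replicates 1 and 2 and a count in 68 cells. All hematopoietic markers listed had counts, in 40 cells (*Hlf*) to 74 cells (*Adgrg1*). Among 11 erythroid markers 7 were at 0 in both libraries, including all adult globin genes listed and *Gata1*, and *Hbb-y*, an embryonic globin gene, had a count in 13 cells. Among 10 macrophage markers 5 were at 0, including *Adgre1*, *Cx3cr1* and the C1q genes. Of the others *Mrc1* was found in 71 cells, at 125 and 162 CPM, *Lyz2* in 34 cells, *Fcgr3* in 24, *Cd68* in 18 and *Csf1r* in 4. Among 9 visceral endoderm markers 5 were at 0. *Afp*, *Ttr* and *Apoa1* had 0 CPM in replicate 1 and 4.25, 5.04 and 7.16 CPM in replicate 2. The most abundant of the list was *Apoe*, found in 87 cells, at 1284 and 1137 CPM in replicates 1 and 2. The ribosomal protein genes *Rpl26* (0.112 and 0 CPM) and *Rpl30* (0 and 0.472 CPM) were also near 0. A 0 in these lists is therefore not read as absence of the transcript, and its cause was not tested. The mesenchymal collagen gene *Col1a2* had a count in 74 cells but 10 or more counts in 8 cells. At least 1 count of *Xist* and at least 1 of *Ddx3y*, *Kdm5d* and *Uty* together were found in 17 of 43 cells of replicate 1 and 22 of 44 of replicate 2. With 2 or more counts of each kind there were 6 and 10 such cells, the 16 cells left out in an alternative below. Whether these were doublets, held transcripts of other barcodes or came from mixed sexes was not tested.

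Initiation factors bring the small ribosomal subunit with the initiator methionyl-tRNA to the capped 5′ end of an mRNA, scan to the start codon and join the large subunit. Elongation factors then deliver aminoacyl-tRNAs and move the ribosome along the message. Many mRNAs of ribosomal proteins and elongation factors begin with a run of pyrimidines after the cap, the terminal oligopyrimidine motif, through which mTOR signalling controls their translation, and blood stem cells are known for tightly held rates of protein synthesis.

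Because several members belong to that mRNA class, the bases around the annotated starts are shown for members on which the results turn. Windows of 20 bases on either side of the start, taken from RefSeq on GRCm38.p6, matched 50 of 64 members. The motif searched was a run of 6 or more C or T bases that opens with C within 5 bases of the start, on the strand of the gene only. It was found in 8 of 50 members (16.0%), in 25 of 64 matched ribosomal protein genes (39.1%) and in 2759 of 27025 windows of the same length (10.2%). Among matched genes of 100 CPM or more in these cells the share was 10.6%. The longest run among members was that of *Eif3f*, with 15 bases. Both eIF2 gamma genes, on X and Y, carried a run of 12 bases, and the *Eef1a1* run had 10. The *Eef1a1*, *Eif3f* and *Eif2s3x* runs begin 5, 4 and 1 bases before the annotated start, so part of each lies upstream of it. A run in such a window is a match in genomic DNA. Whether any of these runs opens the mRNA, as the terminal oligopyrimidine motif does, was not tested. The RefSeq starts of *Eef1a1*, *Eif2s3x* and *Eif2s3y* also lie inside the longer gene spans that GENCODE gives below. *Eef2* and *Eif5a* had no such run within 5 bases of their annotated starts. The *Eef2* window ends in C and T bases that lie outside that range. Whether the mRNAs of these genes lack the motif was not tested. Capitals mark the run, and the windows lie at chr9:78481704-78481744 (*Eef1a1*, minus strand), chr7:108934395-108934435 (*Eif3f*, plus strand), chrX:94212631-94212671 (*Eif2s3x*, minus strand), chrY:1010575-1010615 (*Eif2s3y*, plus strand), chr10:81176611-81176651 (*Eef2*, plus strand) and chr11:69921938-69921978 (*Eif5a*, minus strand).
Eef1a1: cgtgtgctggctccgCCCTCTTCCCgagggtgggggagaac
Eif3f: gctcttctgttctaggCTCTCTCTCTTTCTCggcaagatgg
Eif2s3x: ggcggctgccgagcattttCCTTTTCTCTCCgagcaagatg
Eif2s3y: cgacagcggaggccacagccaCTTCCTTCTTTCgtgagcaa
Eef2: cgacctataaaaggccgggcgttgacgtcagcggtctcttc
Eif5a: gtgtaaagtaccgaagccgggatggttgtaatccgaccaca

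The translation factors were among the more abundant mRNAs of these cells, and a few elongation factor genes gave much of their total. Together the members made up 2.45% of all counts in replicate 1 and 2.13% in replicate 2, a summed level of 22872 ± 2286 CPM (SD, n = 2 libraries). Per cell the share had a lowest value of 1.47%, a median of 2.54% and a highest value of 3.30% in replicate 1. In replicate 2 the corresponding values were 1.55%, 2.07% and 2.78%. Ribosomal protein genes took a median of 15.8% and 11.9% of the counts of a cell in replicates 1 and 2. The 5 most abundant members held 43.5% of the member counts in replicate 1 and 39.5% in replicate 2. Of the 64 members 60 had a count and 36 reached 100 CPM, against 13206 and 2050 of all 23154 genes. Among the members 8 were found in every cell. In cells thinned to 20000 counts, 37 members were found in 50% or more of the cells.

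**Figure D1:**
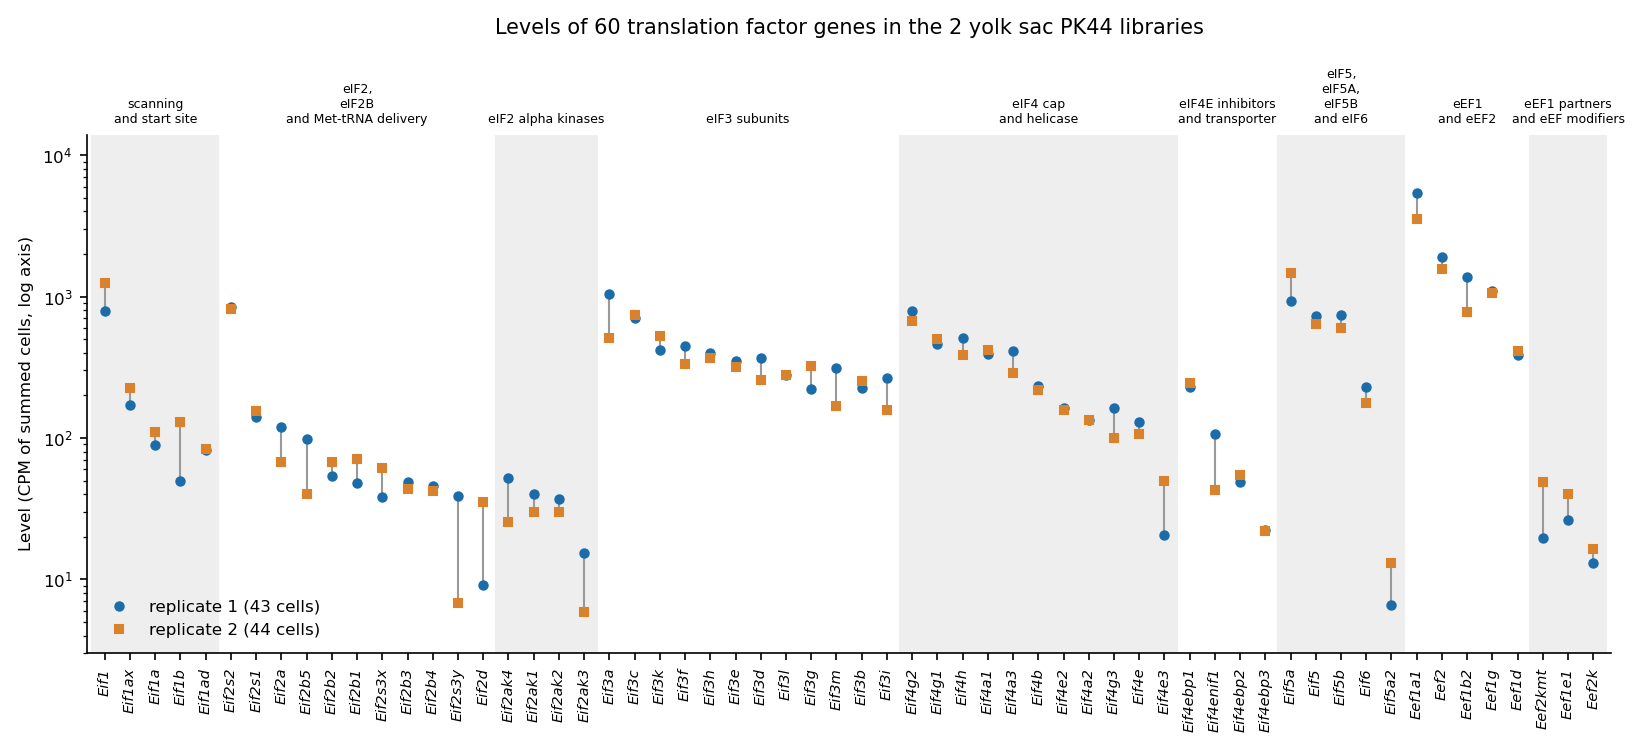
Level of each of the 60 members with a count (CPM of the summed cells, log axis) in replicate 1 (circles) and replicate 2 (squares), grouped by role. *Eef1a1* lies highest, at 5359 and 3551 CPM, and the eIF2 alpha kinases and the eEF1 partners and eEF modifiers lie below 60 CPM in both libraries.

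Levels of most members differed little between the libraries. Of the 60 members with counts in both, 39 (65.0%) lay within 1.5-fold, against 45.4% of 10928 genes. Among genes of 100 CPM or more the shares were 28 of 36 members and 1393 of 2050 genes (68.0%). In all, 33 members were higher in replicate 1 and 27 in replicate 2. All 5 genes listed as scanning factors were higher in replicate 2, the smallest gap being 81.6 and 83.6 CPM in replicates 1 and 2. All 4 eIF2 alpha kinases were higher in replicate 1. Those counts describe 2 libraries and were not tested.

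The elongation factors eEF1 and eEF2 contributed 10115 and 7343 CPM in replicates 1 and 2, or 38.2% of the member counts. *Eef1a1* (chromosome 9 of GRCm38, 78478449 to 78489151, minus strand), which encodes the GTPase that delivers aminoacyl-tRNA to the ribosome, had 5359 and 3551 CPM in replicates 1 and 2 and ranked 7 among all genes. Its level in single cells of replicate 1 ranged from 2490 to 12449 CPM, so no cell lacked it. *Eef2*, the translocase that moves the ribosome by a codon, had 1907 and 1557 CPM in replicates 1 and 2. The exchange factor that recycles eEF1A is built from the products of *Eef1b2*, *Eef1d* and *Eef1g*. *Eef1g* was nearly equal in the libraries, with 1090 and 1051 CPM, whereas *Eef1b2* had 1376 and 774 CPM in replicates 1 and 2. *Eef1d* had 384 and 411 CPM. The eEF1 partners and eEF modifiers were scarce, at a sum of 59.0 and 105 CPM in replicates 1 and 2. *Eef2k*, the kinase that inhibits eEF2, had 13.0 and 16.4 CPM and a count in 17 cells, and 3 cells held 94.0% of its counts in replicate 1. *Eef2kmt*, the eEF2 lysine methyltransferase, had 19.6 and 48.7 CPM, and *Eef1e1*, a subunit of the multisynthetase complex, had 26.4 and 40.4 CPM.

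The eIF3 subunits, the scaffold that joins the small subunit to the cap complex, formed the next largest group, with 5039 and 4233 CPM in replicates 1 and 2. They gave 20.3% of the member counts. All 12 subunits with counts were found in most thinned cells, and their mean levels ran from 212 CPM (*Eif3i*) to 779 CPM (*Eif3a*). *Eif3a*, the largest core subunit, had 1046 and 512 CPM in replicates 1 and 2, a gap of more than 1.5-fold. *Eif3c*, its partner in the core, had 700 and 737 CPM. *Eif3k*, a subunit absent from budding yeast, had 418 and 527 CPM. *Eif3f*, the gene with the longest pyrimidine run above, had 449 and 334 CPM. *Eif3g*, an RNA-binding subunit, had 222 and 321 CPM.

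Genes listed under the cap complex and its helicase summed to 3418 and 3028 CPM in replicates 1 and 2, or 14.1% of the member counts. The most abundant was *Eif4g2*, which encodes a scaffold without the region that binds eIF4E, at 791 and 675 CPM. *Eif4g1*, the scaffold that does bind eIF4E, had 465 and 497 CPM. *Eif4h*, a cofactor of the eIF4A helicase, had 513 and 385 CPM in replicates 1 and 2. The helicase gene *Eif4a1* had 396 and 418 CPM. The cap-binding protein genes were lower. *Eif4e*, which encodes the protein that starts cap-dependent translation, had 130 and 107 CPM, and *Eif4e2*, whose product competes for the cap, had 162 and 158 CPM. The group of eIF4E inhibitors and the eIF4E transporter summed to 407 and 363 CPM. By the mean of both libraries its leading genes were *Eif4ebp1* and *Eif4enif1*. *Eif4ebp1*, a binding protein that mTOR inactivates, had 228 and 243 CPM. *Eif4enif1*, the transporter, had 107 and 43.1 CPM, which in replicate 2 lay below *Eif4ebp2*, at 55.0 CPM.

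Delivery of the initiator tRNA by eIF2 and its exchange factor eIF2B accounted for 1487 and 1408 CPM in replicates 1 and 2. More than any other gene of this group, *Eif2s2*, the beta subunit, stood out, with 848 and 818 CPM. *Eif2s1*, the alpha subunit whose phosphorylation slows initiation, had 140 and 155 CPM. *Eif2a*, an alternative initiator tRNA factor, had 119 and 67.1 CPM. The 5 eIF2B genes had mean levels of 44 to 68.8 CPM. The 4 kinases of eIF2 alpha summed to 145 and 91.2 CPM in replicates 1 and 2, or 0.516% of the member counts.

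Scanning and subunit joining factors made up the rest. *Eif1*, which guards start codon choice, had 795 and 1249 CPM in replicates 1 and 2. *Eif1ax*, the X-linked eIF1A gene, had 172 and 227 CPM. *Eif5a* (chromosome 11 of GRCm38, 69916714 to 69921958, minus strand), which encodes a carrier of the modified residue hypusine and a helper of elongation and termination, had 927 and 1460 CPM in replicates 1 and 2. *Eif5*, the activator of the eIF2 GTPase, had 723 and 640 CPM, and *Eif5b*, the GTPase that joins the large subunit, had 745 and 595 CPM. In the last 500 bases of the *Eif5b* transcripts, 34.9% of windows of 100 bases also occurred in another gene, *Rev1*. The search covered both strands of other transcripts, so a gene that overlaps on the opposite strand also counts as sharing.

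For 4 members no count was found in any of the 87 cells. *Eef1a2*, the eEF1A gene of adult muscle and neurons, and *Eif4e1b*, an eIF4E gene of oocytes, are known to be tissue-restricted. For both, 0 of 87 cells allows up to 4.15% of cells with a count (exact Clopper-Pearson 95% bound, counting error only, cells of both libraries pooled), which does not limit the cells that express the gene. The others are *Eif3j1* (chromosome 2 of GRCm38, 122028546 to 122056598) and *Eif3j2* (chromosome 18, 43475418 to 43477796), both encoding the eIF3j subunit. Of 2280 windows of 100 bases in the *Eif3j2* transcript, 1915 (84.0%) also occurred in *Eif3j1*, and the authors counted uniquely mapped reads. In the last 500 bases, with both strands searched as above, 75.1% of the *Eif3j2* windows were shared, with *Eif3j1* and *Spg11*. Those of *Eif3j1* were shared at 9.23%, with *Spg11* and *Gm3650* and not with *Eif3j2*. Whether this sharing bears on the 0 counts was not tested. The 3′ ends of 54 of 64 members shared no such window with another gene.

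In most paralog families a single gene gave the bulk of the counts, and its share was close in both libraries. *Eef1a1* gave all 47871 eEF1A counts in replicate 1 and all 45123 in replicate 2, which leaves *Eef1a2* at most 0.00771% and 0.00817% (exact 95% bounds). *Eif5a* gave 99.3% (exact 95% interval over pooled counts, counting error only, 99.1% to 99.5%) and 99.1% (99.0% to 99.2%) of the eIF5A counts, and *Eif5a2* the remainder. *Eif1* gave 94.2% (93.6% to 94.7%) and 90.6% (90.1% to 91.0%) against *Eif1b*. *Eif4a1* gave 74.8% (73.5% to 76.0%) and 75.6% (74.6% to 76.6%) against *Eif4a2*, its close helicase relative. *Eif4ebp1* gave 76.1% (74.4% to 77.7%) and 76.0% (74.6% to 77.3%) against *Eif4ebp2* and *Eif4ebp3*. The 3′ windows of *Eif4ebp3* were all shared with another gene, so its counts cannot be assigned to it alone. The eIF1A pair was more even, with *Eif1ax* at 65.8% (63.8% to 67.7%) and 67.4% (66.0% to 68.8%) and the autosomal *Eif1a* at the rest. The median share of the leading gene over families was 72.5%.

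The cap-binding, scaffold and kinase families were mixed. The intervals here also cover counting error only, and shares varied more among cells. *Eif4e2* gave 51.9% (50% to 53.8%) of the eIF4E family counts in replicate 1 and 50.2% (48.6% to 51.7%) in replicate 2, while the mean of its share per cell was 39.8% and 51.9%. By that mean *Eif4e* led in replicate 1, at 49.2%, and 3 cells held 50.3% of the *Eif4e2* counts there. *Eif4e* gave 41.5% and 34%, and *Eif4e3* 6.59% and 15.8%. *Eif4g2* led the eIF4G family with 55.8% (54.9% to 56.7%) and 53.1% (52.3% to 53.9%), followed by *Eif4g1* with 32.8% and 39.1% and *Eif4g3* with 11.4% and 7.80%. No kinase led its family in both libraries. *Eif2ak4*, the sensor of uncharged tRNA also called GCN2, gave 35.9% (33.3% to 38.6%) in replicate 1 and 27.9% (25.3% to 30.5%) in replicate 2. *Eif2ak1*, the heme-regulated kinase, gave 27.9% and 32.8%. *Eif2ak2*, the kinase activated by double-stranded RNA, gave 25.5% and 32.9%. *Eif2ak3*, the kinase of the endoplasmic reticulum, gave 10.7% and 6.47%. The kinase shares rest on few cells, since 3 cells held 74.3% of the *Eif2ak4* counts in replicate 2.

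**Figure D2:**
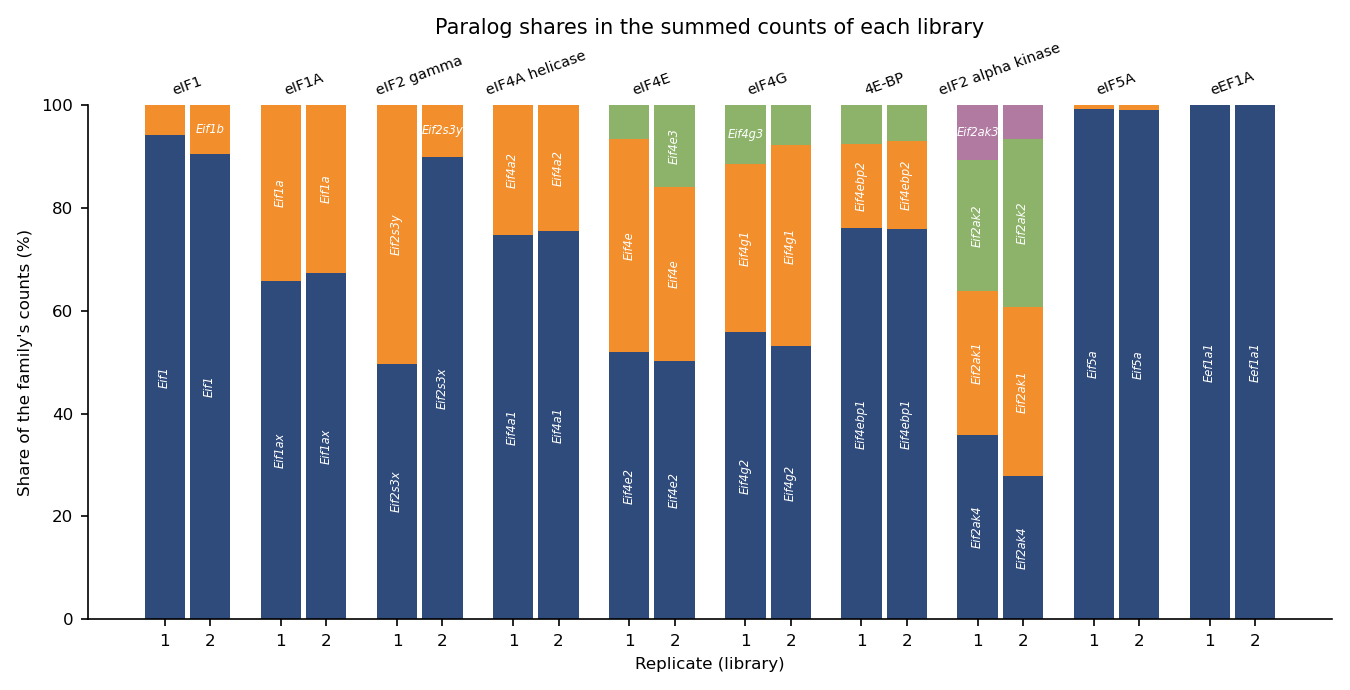
Share of each family's counts (%) given by each paralog, as stacked bars for replicates 1 and 2. The *Eif1*, *Eif5a* and *Eef1a1* bars fill over 90% in both libraries, and the eIF2 gamma pair differs most between them.

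The eIF2 gamma subunit is encoded on X and on Y, and of all families its make-up differed most between the libraries. *Eif2s3x* (chromosome X of GRCm38, 94188707 to 94212862, minus strand) gave 49.7% (45.9% to 53.5%) of the pair's counts in replicate 1 and 89.9% (87.7% to 91.8%) in replicate 2. The mean of its share per cell was 57.4% and 84.7%. *Eif2s3y* (chromosome Y, 1010543 to 1028847, plus strand) had 38.8 and 6.85 CPM in replicates 1 and 2. It was counted in 26 of 43 cells in replicate 1, and in 11 of 44 in the other library. Its counts rest on few cells, since 3 cells held 58.8% of them in replicate 1 and 72.4% in replicate 2. As a mean of CPM over cells its level was 1.58 times as high.

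Cells with Y-linked counts were then compared with cells with *Xist* counts, which asks whether the gamma subunit copy follows sex-linked expression. The Y class held cells with 2 or more counts of *Ddx3y*, *Kdm5d* and *Uty* and 0 of *Xist*, 10 in replicate 1 and 5 in replicate 2. The *Xist* class held cells with 2 or more *Xist* counts and 0 of those genes, 3 in replicate 1 and 11 in replicate 2. *Eif2s3y* had 78.9 CPM in the Y class of replicate 1 and 8.41 CPM in that of replicate 2, and 0 in the *Xist* class of both. It was thus at least 10.5-fold higher in the Y class in replicate 1 and at least 7.02-fold higher in replicate 2, with the *Xist* class set at a floor of 3 counts per library. These folds rest on few cells, since 3 cells held 96.02% of the *Eif2s3y* counts of the Y class in replicate 1, and the 7 counts of replicate 2 came from 2 of 5 cells. *Eif2s3x* had 50.6 and 27.6 CPM in the Y and *Xist* classes of replicate 1 and 44.5 and 35.5 CPM in those of replicate 2. With the classes by dominance described below it had 58.9 and 26.2 CPM in replicate 1. In replicate 2 the order turned, with 51.7 CPM in Y-dominated and 72.5 CPM in *Xist*-dominated cells.

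No member passed the test in this comparison. Over 8357 genes, the quasi-likelihood test of edgeR, blocked by library and Benjamini-Hochberg adjusted, called 0 genes higher in the Y class (0%) and 1 gene lower (0.012%). That gene was *Hes1*, named after its values were seen. Of 58 members tested 0 were called and 0 had an unadjusted p below 0.05, against 130 of all 8357 genes. DESeq2 called 0 members and gave 1 at an unadjusted p below 0.05, against 585 of all genes. For *Eif2s3y* the adjusted p was 1 (quasi-likelihood test of edgeR, Benjamini-Hochberg adjustment, higher in 2 of 2 libraries), with a range of 0.528 to 1 over the alternatives. *Eif2ak4* had 27.8 and 2.51 CPM in the Y and *Xist* classes of replicate 1 and 56.5 and 21.2 CPM in those of replicate 2. *Eif3i* had 123 and 261 CPM in replicate 1 and 28.8 and 92.7 CPM in replicate 2. With the classes by dominance described next, both genes turned, to log2 fold changes of -1.07 for *Eif2ak4* and 0.12 for *Eif3i*. *Eef2kmt* had 8.51 and 82.9 CPM in replicate 1 and 2.40 and 22.4 CPM in replicate 2. *Eif4enif1* had 10.8 and 70.4 CPM in replicate 1 and 10.8 and 16.0 CPM in replicate 2. The classes are small, with 3 cells in the smallest.

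With classes set by dominance, a choice made after seeing the data, a cell needed 5 or more counts of one kind and at least 5 times the counts of the other, and 24 cells were Y-dominated and 24 *Xist*-dominated. An *Eif2s3y* count was found in 4 of 9 *Xist*-dominated cells of replicate 1 and 2 of 15 of replicate 2, none above 4, and doublets, transcripts of other barcodes and mixed sexes cannot be told apart here. Among Y-dominated cells it was found in 11 of 14 and 5 of 10. Over both libraries, median depths were 244592 counts per cell in *Xist*-dominated and 224226 in Y-dominated cells.

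The relation to *Runx1* was taken within each library, by comparing cells above the library's own median *Runx1* level with the other cells. The median was 52.2 and 10.03 CPM in replicates 1 and 2, which gave 21 *Runx1*-high and 22 *Runx1*-low cells in replicate 1 and 22 of each in replicate 2. A single member, *Eif5a*, rose in *Runx1*-high cells, and none fell, while 0.376% of all genes tested rose and 1.19% fell. No other member passed the test. The summed level of all members was 25204 CPM in *Runx1*-high and 23189 CPM in *Runx1*-low cells of replicate 1, and 23039 and 18597 CPM in replicate 2. As a median per cell, members took 2.63% of counts in *Runx1*-high and 2.34% in *Runx1*-low cells of replicate 1. In replicate 2 the medians were 2.18% and 1.83%.

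Over 10629 genes, the quasi-likelihood test of edgeR, blocked by library and Benjamini-Hochberg adjusted, called 40 genes higher (0.376%) and 126 lower (1.19%) in *Runx1*-high cells. Of 60 members tested 1 was called higher and 0 lower, and 5 were higher and 0 lower at an unadjusted p below 0.05. Those 5 are 8.33% of the members, and 8.66% of all genes tested lay below that p. Counting higher genes only, the share of all genes was 3.82%. DESeq2 called the same number, 1, and gave 4 at an unadjusted p below 0.05. With the library as a block, the p-values weigh a class difference against how much it varied between 2 libraries, with that spread partly shared over genes.

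*Eif5a* was higher in *Runx1*-high cells of both libraries by similar amounts. In replicate 1 its summed level was 1169 CPM in *Runx1*-high and 486 CPM in *Runx1*-low cells. In replicate 2 it was 1866 and 855 CPM. Single *Runx1*-high cells of replicate 1 had a lowest value of 200, a median of 723 and a highest value of 2399 CPM, and *Runx1*-low cells 0, 340 and 1368 CPM. In replicate 2 the values were 612, 1645 and 3202 CPM against 69.5, 637 and 1775 CPM. The classes overlapped, yet 19 of 21 *Runx1*-high cells of replicate 1 and 21 of 22 of replicate 2 lay above the median of the *Runx1*-low cells. Above the median of the *Runx1*-high cells lay 6 of 22 *Runx1*-low cells of replicate 1 and 1 of 22 of replicate 2. In replicate 1, 3 cells held 54.1% of the *Eif5a* counts of the *Runx1*-high class. The log2 fold change was 1.16 ± 0.27 (SE, 4 sums), with an adjusted p of 0.00276 by the quasi-likelihood test of edgeR after Benjamini-Hochberg adjustment, and 1.20 and 1.12 within replicates 1 and 2. Over the alternatives the adjusted p ran from 9.79e-05 (DESeq2) to 0.796 (quasi-likelihood test of edgeR, Benjamini-Hochberg adjustment, no library block). The call was lost without the block, in thinned cells (adjusted p of 0.162 by the quasi-likelihood test of edgeR after Benjamini-Hochberg adjustment) and without the 16 cells with 2 or more counts each of *Xist* and Y-linked genes (0.0725), while the log2 fold change stayed at 0.95 or more.

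*Runx1*-high cells were also deeper, the medians being 260240 and 95376 counts per cell in replicate 1, then 271734 and 213444 in replicate 2. Among cells of 50000 or more counts, a choice made after seeing the data, the log2 fold change of *Eif5a* was 1.15, and in cells thinned to equal depth it was 1.18. Both settings kept the classes set on unthinned counts, so they cannot remove the link of class to depth. Before thinning, the medians of the thinned cells were 260240 and 103463 counts in *Runx1*-high and *Runx1*-low cells of replicate 1. The paralog *Eif5a2* had 4.17 and 11.03 CPM in *Runx1*-high and *Runx1*-low cells of replicate 1 and 3.95 and 26.5 CPM in replicate 2, and did not pass the test.

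**Figure D3:**
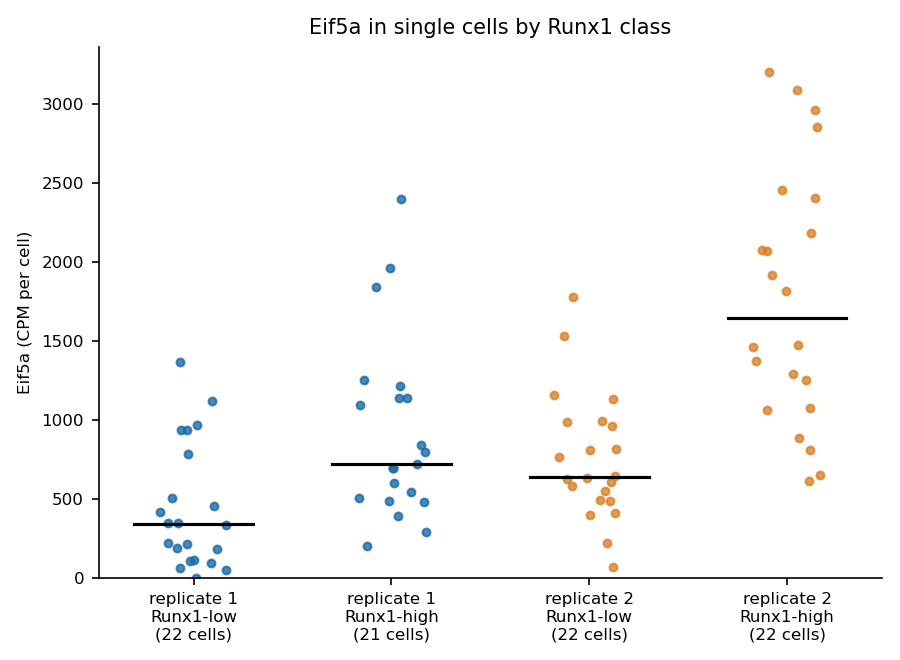
*Eif5a* level per cell (CPM) in *Runx1*-high and *Runx1*-low cells of replicates 1 and 2, with the median of each class as a line. Class medians are 723 and 340 CPM in replicate 1 and 1645 and 637 CPM in replicate 2, and the classes overlap.

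Of the 59 members that were not called 39 were above 0 and 20 below, with a median log2 fold change of 0.18. Over all 60 members 40 were above 0 (66.7%), against 52.7% and a median of 0.07 over all genes tested. Within replicate 1 the median over 60 members was 0.11 against 0.00 for all genes, and within replicate 2 it was 0.38 against 0.03. In both libraries 31 members were above 0 and 12 were below. Those figures describe members tested and say nothing of any single gene.

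The roles were mixed. Of 12 eIF3 subunits tested 10 were above 0, with a median log2 fold change of 0.21, yet the eIF3 sum was lower in *Runx1*-high cells of replicate 1, at 4942 and 5217 CPM, and higher in those of replicate 2, at 4731 and 3491 CPM. *Eif3g* had 264 and 145 CPM in *Runx1*-high and *Runx1*-low cells of replicate 1 and 375 and 241 CPM in replicate 2. Of 11 genes of eIF2, eIF2B and tRNA delivery 8 were above 0. Among them *Eif2b1*, the alpha subunit of the exchange factor, had 68.1 and 10.7 CPM in replicate 1 and 90.1 and 42.7 CPM in replicate 2. Genes listed as scanning factors were above 0 in 2 of 5, and those listed under the cap complex and helicase in 6 of 11 (median 0.06). Kinases were above 0 in 2 of 4 (median 0.14), and eIF4E inhibitors and the transporter in 2 of 4 (median -0.16). The median of the eIF4E inhibitors and the transporter turned between libraries, from 0.78 in replicate 1 to -1.01 in replicate 2. Of the factors eIF5, eIF5A, eIF5B and eIF6 4 of 5 were above 0, as were 2 of 3 eEF1 partners and eEF modifiers. *Eif1* had 796 and 794 CPM in replicate 1 and 1193 and 1332 CPM in replicate 2. Elongation factors were above 0 in 4 of 5, the exception being *Eef1a1*, at 5306 and 5456 CPM in replicate 1 and 3524 and 3592 CPM in replicate 2. *Eef1b2* had 1505 and 1142 CPM in replicate 1 and 924 and 551 CPM in replicate 2.

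The largest fold changes among uncalled members were of scarce genes. *Eif2ak4* had 71.9 and 15.8 CPM in *Runx1*-high and *Runx1*-low cells of replicate 1 and 38.7 and 5.68 CPM in replicate 2, a log2 fold change of 2.44 ± 1.19 (SE). Its adjusted p was 0.541 by the quasi-likelihood test of edgeR after Benjamini-Hochberg adjustment. *Eif2ak3* went the other way in replicate 1, with 0.868 and 41.9 CPM, and was nearly level in replicate 2, with 5.79 and 6.07 CPM. Its log2 fold change of -2.77 turned to 0.18 without the 16 cells with *Xist* and Y-linked counts. *Eif2s3y* had 37.8 and 40.7 CPM in replicate 1 and 1.05 and 15.5 CPM in replicate 2, and its log2 fold change of -1.94 turned to 0.0736 with cells classed by *Runx1* detection. Shares within families followed these levels. *Eif2ak4* gave 47.4% of the kinase counts in *Runx1*-high and 11.9% in *Runx1*-low cells of replicate 1, and 36.1% and 8.43% in replicate 2. *Eif4e* gave 48.3% and 24.5% of its family's counts in replicate 1 and 37.9% and 26.7% in replicate 2, a share chosen after its values were seen. The shares by class were not tested.

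**Figure D4:**
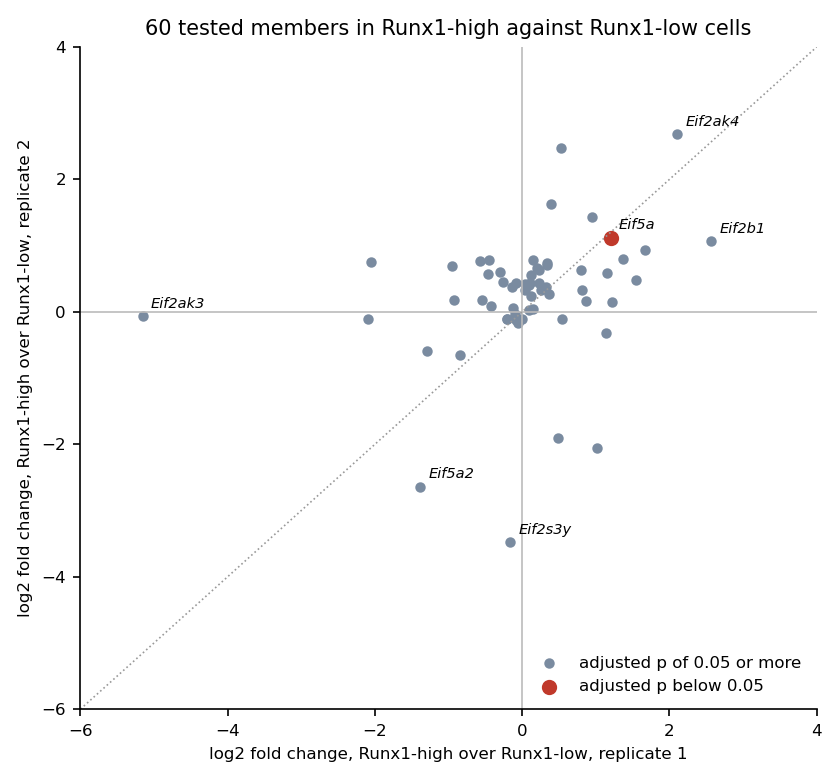
log2 fold change of 60 members between *Runx1*-high and *Runx1*-low cells in replicate 1 (horizontal axis) and replicate 2 (vertical axis), with the member of adjusted p below 0.05 in red. *Eif5a*, at 1.20 and 1.12, is the only such member, and 31 members lie above 0 in both libraries.

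Genes of connected steps were read in the same test. Of 37 ribosome biogenesis genes 4 rose in *Runx1*-high cells and 35 were above 0, with a median log2 fold change of 0.95. Those that rose were *Ncl*, *Nhp2*, *Gnl3* and *Wdr43*, nucleolar factors of rRNA production. With no library block, and in thinned cells, 0 of them passed the test, and the same holds for the hematopoietic markers below. Without the 16 cells with *Xist* and Y-linked counts 2 ribosome biogenesis genes and 1 hematopoietic marker were called. Without the cells with mesenchymal collagen counts 3 and 2 were called, by *Runx1* detection 2 and 4, between the cells of most and least *Runx1* 3 and 4, and with DESeq2 5 and 3. Of 81 ribosomal protein genes 0 were called (1 with DESeq2) and 80 were above 0, with a median of 0.28. Of 22 genes of aminoacyl-tRNA synthetases and their scaffold proteins 0 were called and 20 were above 0, with a median of 0.66. None was called among 8 termination and recycling genes, 10 poly(A) binding and other mRNA partners, 9 mTOR and Mnk kinases, 8 hypusine and diphthamide enzymes, 8 integrated stress response targets and 10 mitochondrial translation factors. For the hypusine enzymes that modify eIF5A, *Dhps* had 2.95 and 12.9 CPM in *Runx1*-high and *Runx1*-low cells of replicate 1 and 17.5 and 10.8 CPM in replicate 2. *Dohh* had 40.8 and 1.58 CPM in replicate 1 and 61.7 and 74.7 CPM in replicate 2.

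Cell identity markers moved with the same classes. Of 15 endothelial markers 8 fell in *Runx1*-high cells, their sum being 2455 and 6005 CPM in *Runx1*-high and *Runx1*-low cells of replicate 1 and 4468 and 10192 CPM in replicate 2. With no library block, and in thinned cells, 0 of the 15 were called, and 4 were called without the 16 cells with 2 or more counts each of *Xist* and Y-linked genes. Of 10 hematopoietic markers other than *Runx1* 4 rose, and of 7 mesenchymal markers tested 5 fell. Mesenchymal markers summed to 66.3 and 2426 CPM in replicate 1 and 23.7 and 818 CPM in replicate 2, with *Col1a2* the most abundant in replicate 1 and *Col1a1* in replicate 2 among *Runx1*-low cells, and 3 *Runx1*-low cells carried high collagen counts. Without those cells 0 of 5 mesenchymal markers tested were called. With all cells 0 of 7 were called by *Runx1* detection, 1 of 7 with no library block and 1 of 6 between the cells of most and least *Runx1*. Also without those cells *Eif5a* had a log2 fold change of 1.17 and an adjusted p of 0.00320 by the quasi-likelihood test of edgeR after Benjamini-Hochberg adjustment, within the range of 9.79e-05 to 0.796 over the alternatives. Of 4 macrophage markers tested 1, *Mrc1*, fell, and the other 3 were above 0 without passing the test, with a list median log2 fold change of 1.89. For *Mrc1* the log2 fold change was -3.10 in replicate 1 and -0.38 in replicate 2, and it was not called with no library block, with DESeq2, by *Runx1* detection, in thinned cells or without the 16 cells with *Xist* and Y-linked counts. The list summed to 176 and 337 CPM in replicate 1 and 248 and 209 CPM in replicate 2. None was called among 17 proliferation genes, which summed to 5147 and 3733 CPM in replicate 1 and 4842 and 3794 CPM in replicate 2. The 2 erythroid and 3 visceral endoderm markers tested were also not called. The part of these markers in the *Eif5a* result was otherwise not tested.

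Coordination among members across single cells was weak. Cells were thinned to 20000 counts, which left 42 cells in replicate 1 and 44 in replicate 2, and 40 members had a mean of 1 or more counts in both. Over 780 pairs the median Spearman rho was 0.0459 in replicate 1 and 0.0346 in replicate 2, against 0.0295 and 0.0103 over pairs of 3305 genes. In replicate 1 that order turned on log2 CPM, with 0.0529 for members and 0.0701 for all genes, and in cells thinned to 50000 counts, with 0.0304 and 0.0351. Among 78 ribosomal protein genes the median was 0.0977 and 0.258. Pairs kept the same sign poorly, with 285 positive and 130 negative in both libraries, and rho of the pair values between libraries was 0.0599. A single pair exceeded 0.3 in both, *Eif3g* with *Eif5a*, at 0.378 and 0.349. The points are cells that share a library and differ in depth, so the values are descriptions, and rho this low in sparse counts is no finding.

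Members with the highest median correlation to the others were *Eif3g*, *Eif5a* and *Eef1d*. Those with the lowest were *Eif1*, *Eif4e2* and *Eif4g2*. Values of both sets were small, from 0.103 for *Eif3g* to -0.0598 for *Eif1* as the average of 2 libraries. Correlation with *Runx1* had a median of 0.112 in 42 cells of replicate 1 and 0.189 in 44 cells of replicate 2, against 0.0491 and 0.0578 over other genes. Of 40 members 29 were positive in both libraries and 3 were negative in both. *Eif5a* was highest, at 0.379 and 0.738, and *Eif4e2* was lowest on the average of both libraries, at -0.215 and -0.184, with *Eif1* lower in replicate 2, at -0.267. *Eif5a* also followed depth, at 0.383 and 0.487.

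The summed members moved with the summed ribosome genes. Sums average out counting noise, so these values cannot be set against those of single pairs. Between single members and single ribosomal protein genes the median rho was 0.0405 and 0.103 in replicates 1 and 2. The summed members' correlation with the summed ribosomal proteins was 0.449 in replicate 1 and 0.772 in replicate 2. With ribosome biogenesis genes it was 0.365 and 0.787. With endothelial markers it was -0.319 and -0.827, and with hematopoietic markers 0.304 and 0.604. With proliferation genes it was near 0, at 0.0330 and 0.0700. The sum held no common relation to depth, with -0.259 and 0.291. The 5 single genes most like the summed members, of 3265 compared, were *Serbp1* (0.518 and 0.614), *Rps12* (0.597 and 0.461), *Npm1* (0.399 and 0.658), *Runx1* (0.323 and 0.725) and *Hsp90ab1* (0.677 and 0.347). The median over the compared genes was -0.00148 and 0.0374. Among the 30 most like genes 15 encode ribosomal proteins, which made up 78 (2.39%) of the genes compared. Each value was stronger in replicate 2 for the ribosomal, endothelial and hematopoietic lists.

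**Figure D5:**
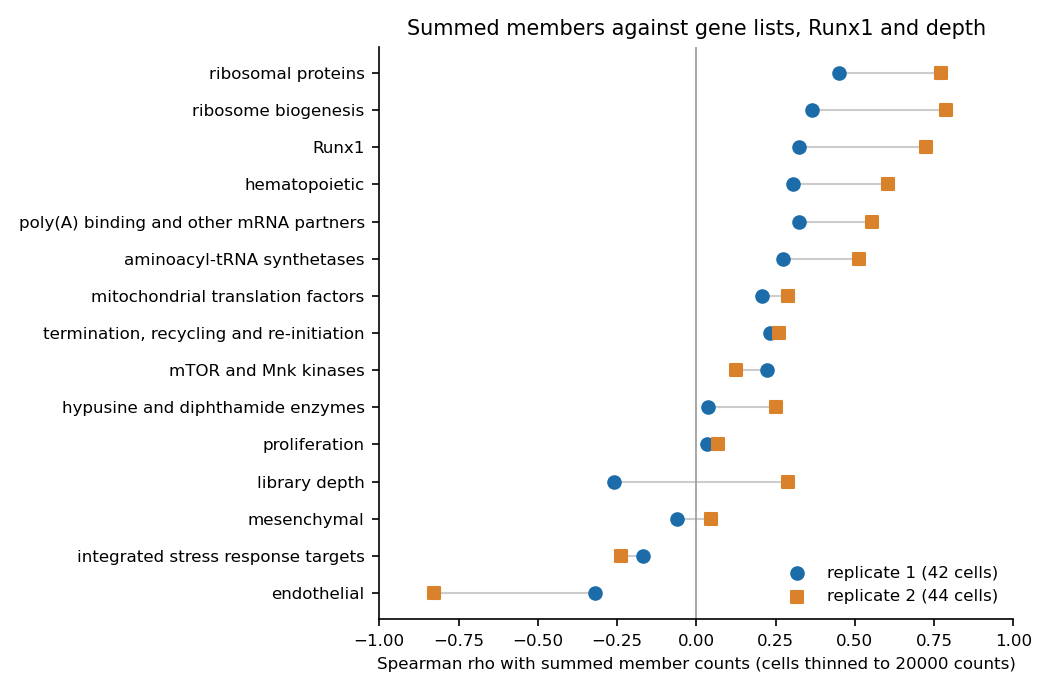
Spearman rho across thinned cells between the summed members and each gene list, in replicate 1 (42 cells) and replicate 2 (44 cells). Ribosomal proteins (0.449 and 0.772) and ribosome biogenesis (0.365 and 0.787) lie highest, endothelial markers lowest (-0.319 and -0.827).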

How the data were processed

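The authors split reads by cell barcode, aligned Read 1 to mm10 with HISAT2 2.1.0 and counted uniquely mapped reads with HTSeq. They removed duplicates by UMI and dropped low-quality cells. Cells with very high numbers of reads and genes were also excluded by the authors, as possibly not single. The deposited values are counts without normalization. No cell was dropped here and doublets were not called. Single counts made up 10.4% of the 4039 nonzero member values, whose median was 46, and whether each count is a separate molecule was not tested.

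CPM came from summed counts. Classes were compared on 4 sums with edgeR 4.0.16 (TMM after filterByExpr, threshold 0.05) and DESeq2 1.42.0 under R 4.3.3, leaving out the genes that set the classes. Both sums of a library come from that library, which was therefore a block. Members, lists and rules were chosen with earlier results of these data known. Named genes were the 3 most abundant of each role, all paralogs, called members, the 5 largest fold changes alike in both libraries, the extremes of correlation and the 5 most like genes. Coordinates are from GENCODE M21.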

Additional observations from a re-analysis of the deposited data

How the results depend on the processing

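The *Runx1* count of 1 called member became 0 with no replicate block, in sums of cells thinned to 20000 counts and without the 16 cells with 2 or more counts each of *Xist* and Y-linked genes. All genes called numbered 166 with the block, 1, 4 and 78 in those settings and 276 with DESeq2. The cause was not tested. The log2 fold change of *Eif5a* was 1.12 to 1.20 with each replicate left out. The median over members was 0.38 without replicate 1 and 0.11 without replicate 2. Signs turned for *Eif2ak3* (0.18 without those 16 cells) and *Eif2s3y* (0.0736 with *Runx1* detected against not detected), and between Y and *Xist* classes set by dominance for *Eif2ak4* (-1.07) and *Eif3i* (0.12), none of them called. Genes called between those classes numbered 1, or 2 with no replicate block, 8 with DESeq2 and 0 by dominance. The median pairwise correlation was 0.0545 on log2 CPM and 0.0533 as Pearson r, against 0.0402. The median leading paralog share was 70.3% to 75.8% with each replicate left out. As a mean over cells, 9 of 26 paralog shares and 19 of 60 member levels moved beyond the SD of the libraries. Between Y and *Xist* classes the member median of 0.08 ran from -0.18 to 0.29 with each replicate left out and was -0.04 by dominance.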

Other observations

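Limits follow from the design. There are 2 libraries of a single condition, from an unstated number of embryos, and a test on 4 sums. Counts of members under 100 CPM often rest on a few cells. The *Runx1* classes also differ in depth, and in endothelial and hematopoietic markers whose part in the *Eif5a* result was not tested. mRNA counts give no protein level, no hypusine state and no rate of translation.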
